A study of Oryza sativa with 6 samples.

Results

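Small RNAs and DNA methylation silence transposons, viruses and endogenous genes in plants. Dicers cut dsRNA into small RNAs with the help of dsRNA-binding proteins, Argonautes load them to cleave RNA or to guide DNA methyltransferases, and DNA glycosylases of the ROS1 type remove methylated cytosine. Both systems are known from plant defence and from development, and some of their proteins work mainly in germ cells.

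The 18 genes described here are members of this machinery, each measured by a probe set of 1 annotated gene, out of 14662 genes and 41770 probe sets on the arrays. Genes of this machinery that carry other names are not among them. They were chosen by name, as genes with a symbol or RefSeq synonym of the AGO, DCL, RDR, DRB, HEN, MET, CMT, DRM, DNG or ROS type, or named MEL1, PNH1 or SHL4. They comprise 1 Dicer, 11 Argonautes, 4 dsRNA-binding proteins, 1 DNA methyltransferase and 1 DNA glycosylase, each with 1 probe set. The RefSeq table used here holds 33 genes with such names. The other 15 were not analysed here, among them the maintenance methyltransferases MET1A and MET1B, the chromomethylase CMT3 and the de novo methyltransferase DRM2. The 2 RNA-dependent RNA polymerases whose names met the rule, RDR2 and RDR4, were also among these 15. No sequence of these genes was used here.

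Roots of rice (Oryza sativa, cultivar Swarna MTU7029), aged 3 weeks, were sampled at 0 h without treatment and 6 h and 24 h after a suspension of the yeast Rhodotorula mucilaginosa JGTA-S1 was supplied. Total RNA of each time was measured on 2 Affymetrix arrays, 6 in all, as a log2 signal per probe set. Separate plants are not stated for the 2 arrays of a time, and each p-value therefore reflects a spread that may be technical. Untreated roots were sampled at 0 h alone, and the effects of the yeast and of elapsed time cannot be told apart.

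The arrays shared a centre but not a spread, which bears on each difference below. Medians lay between 2.79 and 2.93, while the SD over probe sets was 1.50 and 1.46 at 0 h, 1.82 and 1.62 at 6 h, and 1.79 and 1.75 at 24 h. A wider spread places bright probe sets higher and dim ones lower, and the median difference of all 14662 genes was 0.20 at 6 h and 0.26 at 24 h. Of 11 root markers 7 lay above the array median on all 6 arrays. Their summed linear signal was 931.0 and 839.0 at 0 h, 1220 and 1060 at 6 h, and 879.0 and 1020 at 24 h. The brightest of them, Lsi2, with 8.78 to 9.17 on the log2 scale, made up a large part of each sum. At 6 h 10 of the 11 read higher, with a median difference of 0.48, and at 24 h 7 of the 11, with a median of 0.19, and 0 passed the test at either time. Of 9 floral and germ cell markers 0 lay above the array median on every array, and their summed linear signal was 51.2 and 66.3 at 0 h, 35.6 and 45.0 at 6 h, and 38.7 and 38.2 at 24 h. The sum over 11 markers of dividing cells was 110.0 and 105.0 at 0 h, 120.0 and 104.0 at 6 h, and 123.0 and 112.0 at 24 h. The sum over 4 green shoot markers was 82.5 and 119.0 at 0 h, 97.5 and 63.1 at 6 h, and 137.0 and 91.0 at 24 h. Of these 4, 2 read higher than at 0 h at each treated time. The part of these markers in the members' values was not tested. In whole roots, fewer cells of a type and less RNA per cell cannot be told apart.

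The comparisons with 0 h asked which genes of this machinery differed after the yeast. At 24 h OsDCL4, the Dicer of secondary small interfering RNAs, and DNG701, a DNA glycosylase that removes methylated cytosine, were the members that rose, 3.31-fold and 3.02-fold. At 6 h both read higher as well, 2.75-fold and 2.37-fold, without passing. The Argonaute gene OsAGO1b had a larger difference, 6.67-fold at 6 h and 5.98-fold at 24 h, but its 2 control arrays lay far apart. It did not pass at either time in the values as deposited. MEL1, the germ cell Argonaute, was the member with the lowest difference at both times, 0.430-fold at 6 h and 0.519-fold at 24 h, and did not pass. OsDCL4, DNG701 and OsAGO1b each lay below the array median on 1 control array, at 2.82, 2.75 and 2.42 against medians of 2.91 to 2.93, beside 2.77 and 2.92 for MEL1 at 0 h. No detection call was used, and whether such signals exceed background cannot be read from the values, so these fold changes rest in part on controls of unknown detection. A linear model over all 6 arrays (limma) with p-values adjusted over all 41770 probe sets and a threshold of 0.05 was used throughout, and rose, fell and passed refer to it.

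By count, 0 of the 18 genes passed at 6 h, where 1.53% of all probe sets and 2.2% of the 14662 genes did. At 24 h 2 of the 18 rose and 0 fell, where 2.21% of probe sets and 3.08% of the genes passed and 2.97% of the genes rose. With an unadjusted p under 0.05, 6 members were higher and 1 lower at 6 h, and 9 higher and 1 lower at 24 h. Among all 14662 genes 19% were higher and 4.27% lower on that measure at 6 h, and 22.1% and 3.94% at 24 h. The members' median difference was 0.61 at 6 h and 0.62 at 24 h. It lay above the median of all genes by 0.42 and 0.36 as deposited, but by 0.12 and 0.03 after quantile normalization and by 0.10 and 0.07 after cyclic loess. After either of these normalizations 0 of the 18 passed at both times. Few genes could pass there: of all 41770 probe sets 81 passed at 6 h and 24 at 24 h after quantile normalization. After cyclic loess 119 and 52 passed.

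**Figure D1:**
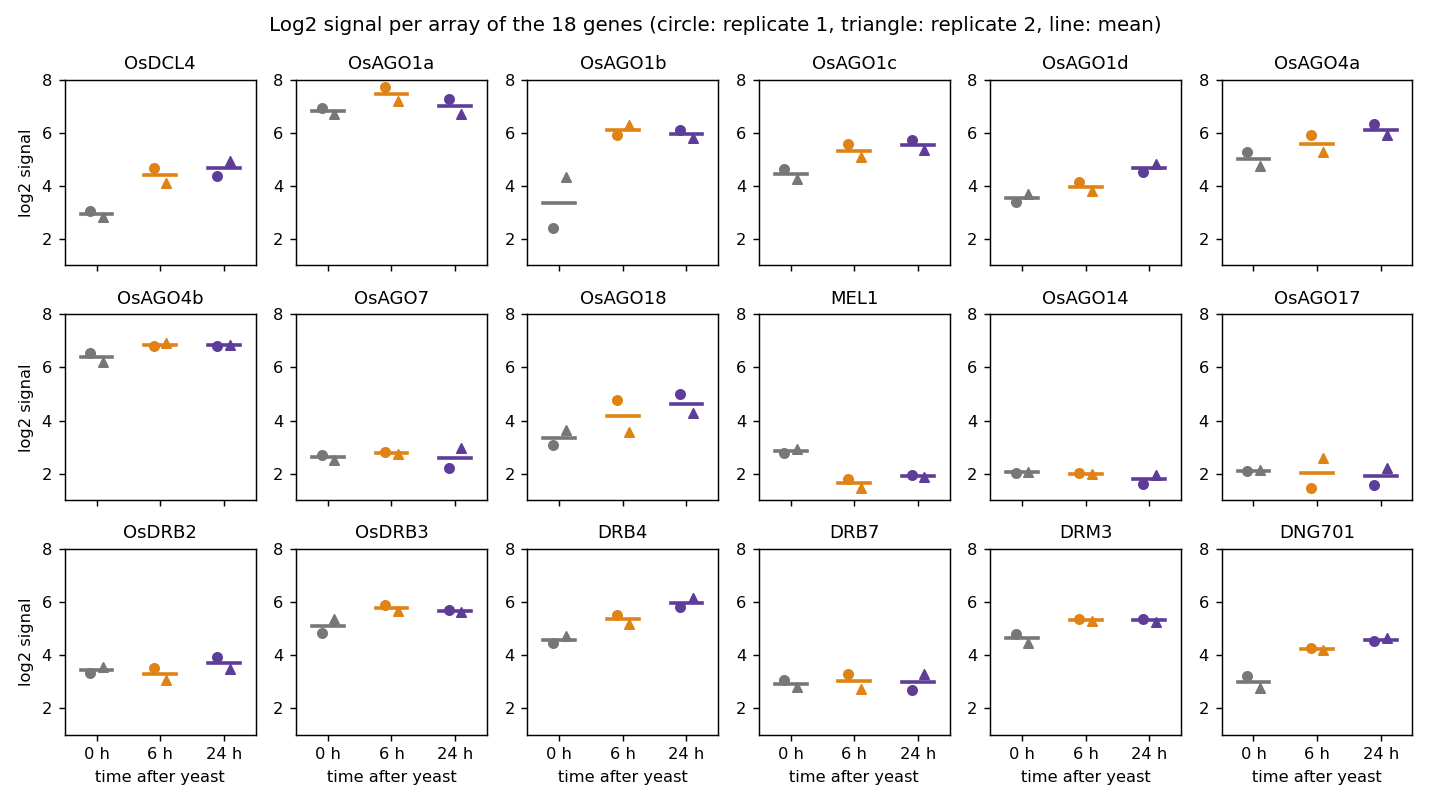
Log2 signal of each of the 18 genes on every array against time after the yeast, with circles for replicate 1, triangles for replicate 2 and lines for the mean of a time. OsDCL4 lay between 4.12 and 4.95 on the 4 arrays after the yeast, above 2.82 and 3.04 at 0 h, and DNG701 between 4.21 and 4.64, above 2.75 and 3.23, while MEL1 lay below both control arrays on all 4.

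OsDCL4 (LOC4336362), known in rice also as SHO1, makes the secondary small interfering RNAs that act in leaf and shoot development. It read 3.04 and 2.82 on the log2 scale at 0 h, 4.66 and 4.12 at 6 h, and 4.37 and 4.95 at 24 h. All 4 arrays after the yeast lay above both control arrays, and the 2 treated times overlapped. The log2 difference was 1.46 ± 0.35 at 6 h (SE, n = 2 arrays per time, limma adjusted p = 0.0805) and 1.73 ± 0.35 at 24 h (adjusted p = 0.0490). The value at 24 h lies just under the threshold, with a 95% interval of 0.93 to 2.53. Its size was 1.56 after quantile normalization (adjusted p = 0.120) and 1.20 after cyclic loess (adjusted p = 0.169), so that the call was lost but the direction was not. The call was lost as well with an intensity trend, with a floor at the array median and with only the 4 arrays compared. In the last of these settings no probe set on the arrays passed at 24 h. Leaving out any 1 array other than the first control array also ended the call, with adjusted p from 0.0731 to 0.398 and differences from 1.44 to 2.02, and with the replicate number as a block the adjusted p was 0.0644.

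Of the 4 dsRNA-binding proteins, a family of which some members assist Dicers, 0 passed at either time. DRB4 (LOC4345448), whose Arabidopsis namesake is the partner of the Dicer DCL4, read 4.45 and 4.73 at 0 h, 5.53 and 5.16 at 6 h, and 5.80 and 6.14 at 24 h. The arrays of the 3 times did not overlap. The difference from 0 h was 0.75 ± 0.31 at 6 h (limma adjusted p = 0.245) and 1.38 ± 0.31 at 24 h (adjusted p = 0.0648), and it did not pass. Quantile normalization reduced these values to 0.22 and 0.74, and cyclic loess to 0.16 and 0.68. OsDRB3 (LOC4337826) differed by 0.69 ± 0.31 and 0.57 ± 0.31 at 6 h and 24 h, with all 4 arrays above the control arrays. After quantile normalization these values were 0.11 and -0.11, and after cyclic loess 0.10 and -0.11, so the sign at 24 h turned. OsDRB2 (LOC4347527) and DRB7 (LOC4349575) overlapped with 0 h at both times, with differences between -0.13 and 0.27. The RefSeq synonyms assign DRB2 to OsDRB3 as well, so the names with the prefix Os were kept apart by locus.

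Among the Argonautes of the AGO1 clade, which in plants mostly load microRNAs and cleave their targets, OsAGO1b (LOC9270411) had the largest difference. It read 2.42 and 4.33 at 0 h, 5.91 and 6.31 at 6 h, and 6.11 and 5.80 at 24 h. The control arrays lay 1.90 apart, the widest gap of any of the 18 genes at 0 h, yet both lay below all 4 arrays after the yeast. The difference was 2.74 ± 0.56 at 6 h (limma adjusted p = 0.0589) and 2.58 ± 0.56 at 24 h (adjusted p = 0.0583). Without the first control array, where the gene read lowest, it was 1.79 and 1.63, and without the second 3.69 and 3.53. Leaving out the first or the second 6 h array gave 2.94 or 2.54 at 6 h. After quantile normalization the difference at 6 h was 2.45 (limma adjusted p = 0.188) and after cyclic loess 2.15 (adjusted p = 0.165), and neither passed. Over 10 processing settings the difference at 6 h ran from 2.15 to 2.86, and 5 passed (limma adjusted p from 0.0322 to 0.188). At 24 h it ran from 1.88 to 2.66 over 10 processing settings, of which 5 passed (limma adjusted p from 0.0271 to 0.247). On the same count OsDCL4 passed in 1 setting at 6 h and 4 at 24 h, and DNG701 in 1 and 5. With both treated times averaged against 0 h OsAGO1b passed at 2.66 ± 0.49 (adjusted p = 0.0258).

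OsAGO1c and OsAGO1d had smaller differences at 24 h than OsAGO1b, and OsAGO1a overlapped with 0 h there. OsAGO1c (LOC4331253) read 4.62 and 4.27 at 0 h, 5.58 and 5.09 at 6 h, and 5.72 and 5.35 at 24 h. OsAGO1d (LOC4342138) read 3.38 and 3.71 at 0 h, 4.15 and 3.79 at 6 h, and 4.52 and 4.81 at 24 h. All 4 arrays after the yeast lay above both control arrays for both genes, although OsAGO1d at 6 h exceeded the higher control array by little. Their differences at 24 h were 1.09 ± 0.33 and 1.12 ± 0.31, and neither passed (limma adjusted p = 0.120 and 0.103). After quantile normalization they were 0.47 and 0.74, and after cyclic loess 0.39 and 0.57. OsAGO1a (LOC4330281) differed by 0.65 ± 0.35 at 6 h, with both arrays above the control arrays, and by 0.17 ± 0.35 at 24 h, with overlap. Its value at 6 h was 0.26 after quantile normalization and 0.19 after cyclic loess, and at 24 h its sign turned (-0.27 and -0.32). Probe sequences were not used here, so signal shared between these closely related genes cannot be told apart.

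OsAGO4a (LOC4324438) and OsAGO4b (LOC4335025) belong to the clade that guides DNA methylation. OsAGO4a read 5.28 and 4.75 at 0 h, 5.92 and 5.27 at 6 h, and 6.34 and 5.91 at 24 h. It overlapped with the control arrays at 6 h and lay above them at 24 h, where the difference was 1.11 ± 0.37 (limma adjusted p = 0.142), against 0.47 after quantile normalization and 0.44 after cyclic loess. OsAGO4b differed by 0.48 ± 0.29 at 6 h and 0.45 ± 0.29 at 24 h and lay above the control arrays on all 4 arrays. After quantile normalization those differences of OsAGO4b were -0.01 and -0.06.

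OsAGO18 (LOC4343201), an Argonaute of grasses that in rice is induced by virus infection and takes up a microRNA that represses AGO1, read 3.06 and 3.63 at 0 h, 4.79 and 3.56 at 6 h, and 4.99 and 4.29 at 24 h. The 6 h arrays lay far apart and overlapped with 0 h, and the 24 h arrays lay above the control arrays. The difference was 0.83 ± 0.47 at 6 h (limma adjusted p = 0.376) and 1.30 ± 0.47 at 24 h (adjusted p = 0.172), and it did not pass. After cyclic loess it was 0.44 and 0.75. OsAGO7 (LOC4333232), which as SHL4 is needed for the shoot meristem of the rice embryo, differed by 0.17 ± 0.34 and -0.03 ± 0.34, with intervals from -0.62 to 0.95 and from -0.82 to 0.75.

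MEL1 (LOC4334449), an Argonaute needed for meiosis in rice germ cells, read 2.77 and 2.92 at 0 h, 1.79 and 1.47 at 6 h, and 1.95 and 1.86 at 24 h. All 4 arrays after the yeast lay below both control arrays. The difference was -1.22 ± 0.29 at 6 h (limma adjusted p = 0.0835) and -0.95 ± 0.29 at 24 h (adjusted p = 0.126), and it did not pass. Every value of MEL1 lay below the median of its own array, and so did every value of OsAGO14 (LOC4342603) and OsAGO17 (LOC4328436), which differed by -0.26 to -0.05. These 3 genes were the members removed by a filter on the dimmest 33.3% of probe sets, which kept 15 of the 18. The limit on dim signals given above applies to these genes on every array. All 9 floral and germ cell markers also read lower than at 0 h at both times, with median differences of -0.32 and -0.29. Of these markers 0 passed at either time, and 5 lay below the array median on every array. Their part in the value of MEL1 was not tested.

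DRM3 (LOC4337721) belongs to the family of de novo DNA methyltransferases, and its Arabidopsis namesake is catalytically inactive but needed for methylation guided by small RNAs. It read 4.80 and 4.46 at 0 h, 5.38 and 5.28 at 6 h, and 5.36 and 5.27 at 24 h. All 4 arrays after the yeast lay above both control arrays, and the difference was 0.70 ± 0.29 and 0.68 ± 0.29 (limma adjusted p = 0.249 and 0.231). With quantile normalization these values were 0.18 and 0.04, and with cyclic loess 0.11 and -0.02.

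DNG701 (LOC4338940), named ROS1C as well, is a rice glycosylase known to remove cytosine methylation from the retrotransposon Tos17. It read 3.23 and 2.75 at 0 h, 4.26 and 4.21 at 6 h, and 4.53 and 4.64 at 24 h. The 3 times did not overlap, and the control arrays lay further apart (0.48) than the arrays at 6 h (0.05) or at 24 h (0.12). The difference was 1.25 ± 0.31 at 6 h (limma adjusted p = 0.0865) and 1.60 ± 0.31 at 24 h (adjusted p = 0.0456), with a 95% interval of 0.89 to 2.30 at 24 h. After quantile normalization it was 1.41 (adjusted p = 0.146) and after cyclic loess 1.09 (adjusted p = 0.183). The call at 24 h was lost as well with an intensity trend and with only the 4 arrays compared, where no probe set on the arrays passed. Without the first control array the gene passed at both times (1.49 and 1.84, adjusted p = 0.0456 and 0.0288), and without any other array the call at 24 h was lost (adjusted p from 0.0657 to 0.415), as it was with the replicate number as a block (0.0573).

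**Figure D2:**
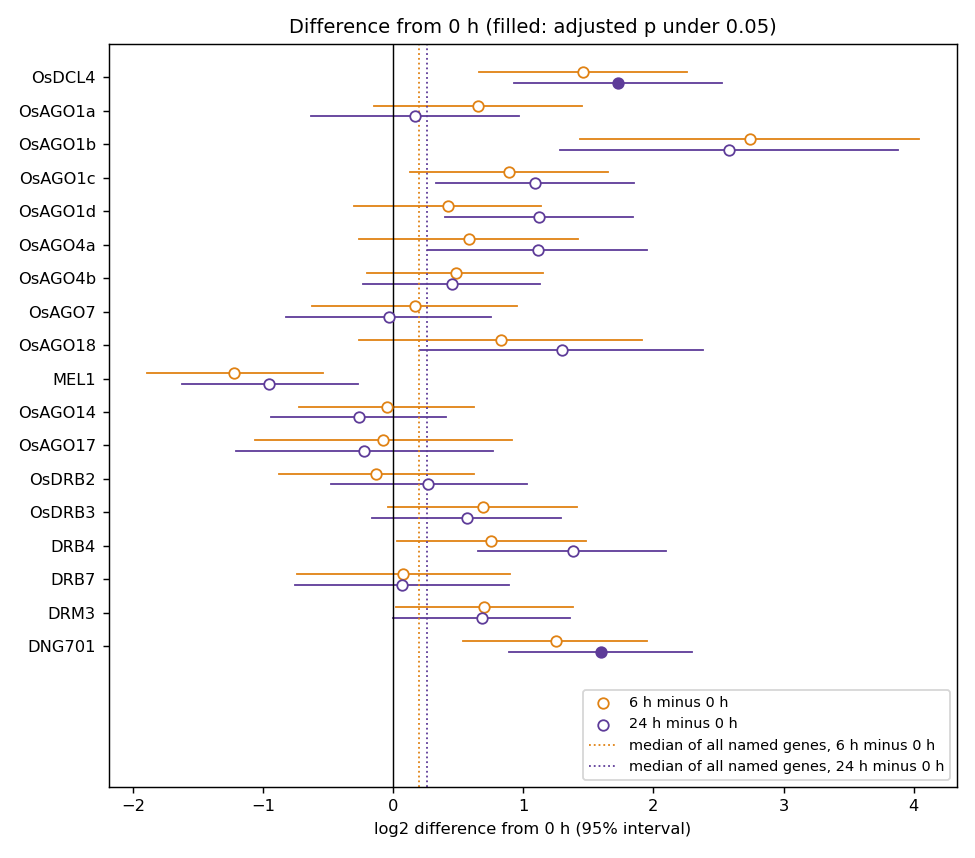
Log2 difference from 0 h of the 18 genes at 6 h and 24 h, with 95% intervals from the model on the deposited values and dotted lines for the median of all 14662 genes (0.20 and 0.26). The filled points, OsDCL4 (1.73) and DNG701 (1.60) at 24 h, are those that passed, and the intervals of OsAGO1b are the widest.

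By array position in the deposited values, 9 of the 18 genes had all 4 arrays after the yeast above both control arrays, where 28.9% of all 14662 genes did. These were OsDCL4, DNG701, DRM3, DRB4, OsDRB3, OsAGO1b, OsAGO1c, OsAGO1d and OsAGO4b. MEL1 and OsAGO14 had all 4 below, where 9.32% of genes did. At 6 h 11 members lay above both control arrays (34.3% of genes), at 24 h also 11 (42.6%), and 2 lay below at each time (14.6% and 16.3%). Both treated times share the same 2 control arrays, so these counts are not independent of each other. The counts were not repeated after quantile normalization or cyclic loess. The part of the wider spread of the treated arrays in them was not tested. After quantile normalization the members' median difference lay above that of all genes by 0.12 at 6 h and 0.03 at 24 h.

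Between 24 h and 6 h 0 of the 18 genes passed, and neither did any of the 41770 probe sets (0%), of which 1097 had an unadjusted p under 0.05. At that unadjusted level 0 members were higher or lower, where 2.13% of the 14662 genes were higher and 1.1% lower. Of the members 9 read higher and 9 lower at 24 h, where 55.6% of genes read higher, and their median difference was 0.09. OsAGO1d had the largest difference, 0.70 ± 0.31, with 4.52 and 4.81 at 24 h against 4.15 and 3.79 at 6 h, followed by DRB4 at 0.62 ± 0.31 (limma unadjusted p = 0.0564 and 0.0823). For OsDCL4 and DNG701 it was 0.27 ± 0.35 and 0.35 ± 0.31, with 95% intervals from -0.53 to 1.07 and from -0.36 to 1.06. These arrays do not exclude a change within those intervals.

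With both treated times averaged and set against 0 h, 3 of the 18 genes rose and 0 fell, where 5.5% of probe sets and 7.71% of genes passed and 7.21% of genes rose. Beside OsAGO1b these were OsDCL4 (1.59 ± 0.30, limma adjusted p = 0.0279) and DNG701 (1.42 ± 0.27, adjusted p = 0.0270). MEL1 missed the threshold at -1.08 ± 0.25 (adjusted p = 0.0501). After quantile normalization 0 of the 18 passed, with 1.50 for OsDCL4 (adjusted p = 0.0602), 1.33 for DNG701 (0.0788) and 2.33 for OsAGO1b (0.128). Leaving out 1 array gave between 0 and 3 members past the threshold, 0 of them without the first 6 h array or without either 24 h array.

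**Figure D3:**
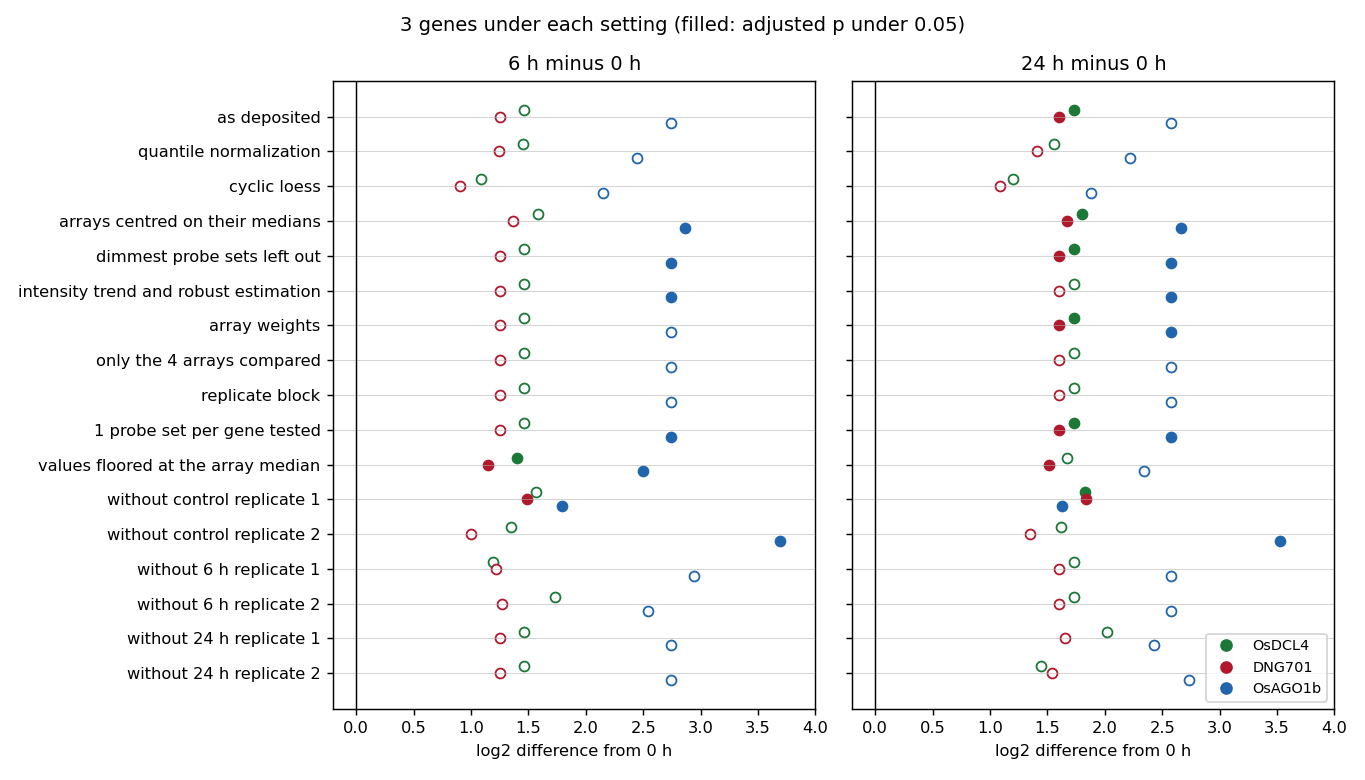
Log2 difference from 0 h of OsDCL4, DNG701 and OsAGO1b under each processing setting, at 6 h on the left and 24 h on the right, with filled points where the adjusted p was under 0.05. The 3 genes read higher than at 0 h in every setting shown, from 0.90 upward, while the calls come and go.

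**Figure D4:**
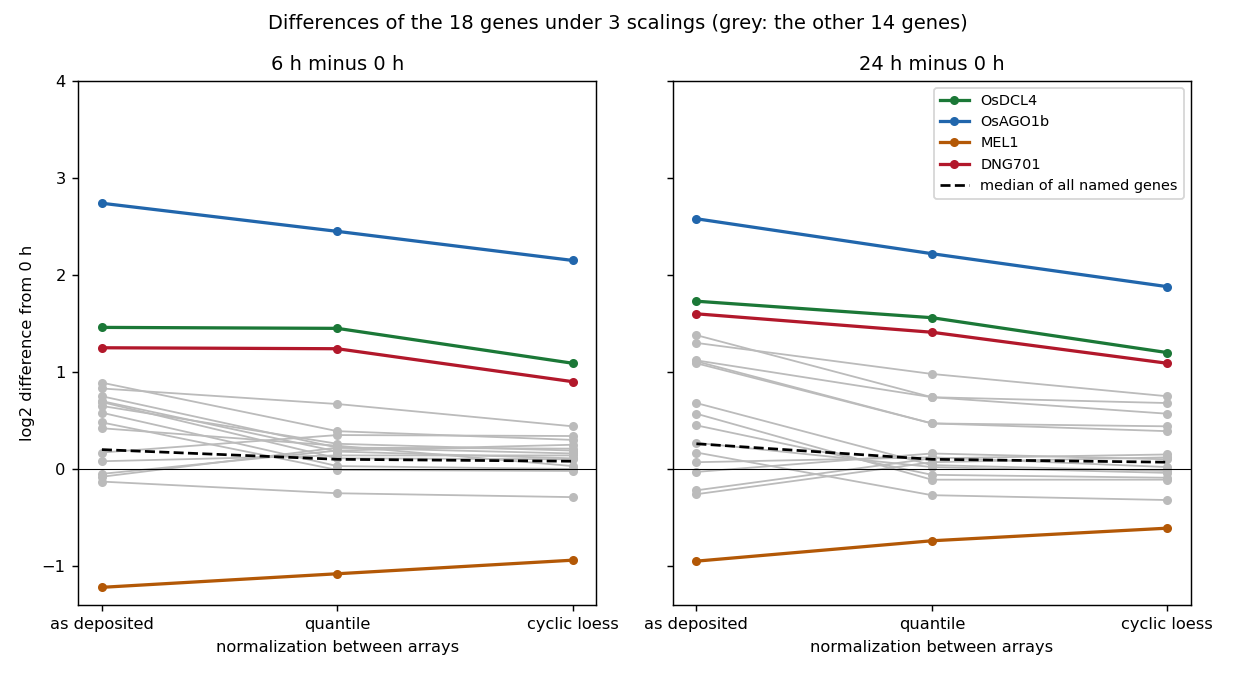
Log2 difference from 0 h of the 18 genes as deposited, after quantile normalization and after cyclic loess, with the median of all 14662 genes dashed. OsAGO1b, OsDCL4 and DNG701 stay at 0.90 or above and MEL1 at -0.61 or below in all 3, while most other members draw towards 0.

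Genes of neighbouring silencing pathways were few among the named genes. Of the companion list, which took names of histone methyltransferases, demethylases and deacetylases, the polymerases of DNA methylation and chromatin remodellers, 3 genes were measured, and 0 passed at 6 h or 24 h. FIE (LOC4344620), a subunit of the Polycomb complex that sets a repressive histone mark, read 3.76 and 4.20 at 0 h, 5.35 and 4.93 at 6 h, and 5.66 and 5.30 at 24 h. All 4 arrays after the yeast lay above both control arrays, with differences of 1.16 ± 0.33 at 6 h and 1.50 ± 0.33 at 24 h (limma adjusted p = 0.119 and 0.0600), and of 0.59 and 0.80 after cyclic loess. JMJ703 (LOC4338043), a demethylase of an active histone mark, differed by 1.05 ± 0.35 and 0.83 ± 0.35 (adjusted p = 0.159 and 0.219). Quantile normalization gave 0.49 and 0.16 for it, and cyclic loess 0.48 and 0.17. JMJ705 (LOC4324980), a demethylase of the Polycomb mark that is known from rice defence, differed by 0.19 ± 0.37 and -0.20 ± 0.37, with overlap at both times. With both treated times averaged FIE passed at 1.33 ± 0.29 (adjusted p = 0.0399), but not after quantile normalization (0.84, adjusted p = 0.158).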

How the data were processed

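Root RNA of 3 times was measured on 2 arrays each. Per the labels' protocols, biotin-labelled targets were made with a GeneChip WT terminal labelling kit. The authors deposited 1 log2 signal per probe set (read as log2 because the values run from 0.65 to 13.36), made with Affymetrix Expression Console per the submitters' processing notes. For the log base, summarisation, background correction and normalization, nothing was stated (not given in the sources used here).

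Gene names came from the platform annotation (15299 with 1 gene, 436 with several, 26035 with none) and RefSeq synonyms of the assembly ASM3414082v1, in which 14661 of 14662 genes were found by gene number. The members and lists were chosen with earlier results of these data known. Limma 3.58.1 in R 4.3.3 fitted 1 mean per time to the deposited values (3 residual and 5.08 prior degrees of freedom), with Benjamini-Hochberg adjustment over 41770 probe sets and a threshold of 0.05. Errors are standard errors of the model. The fit was tested on simulated data. Named in full are members past the threshold or with an unadjusted p under 0.05, the extremes of each role, and the companion genes. 2 homonyms were left out of the companion and marker lists by name. Figures were drawn in Python 3.11.15. The alternatives were quantile normalization, cyclic loess, median centring, leaving out the dimmest 33.3% of probe sets, an intensity trend with robust estimation, array weights, only the 4 arrays compared, the replicate number as a block, testing 1 probe set per gene, a floor at the array median, and leaving out each array. The number of arrays limits the precision.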

Additional observations from a re-analysis of the deposited data

How the results depend on the processing

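Each of the 18 genes has 1 probe set, so counting all probe sets of a gene changed nothing. The members past the threshold numbered 0 at 6 h, 2 at 24 h and 3 with both times averaged. At 24 h they numbered 0 after quantile normalization, after cyclic loess, with only the 4 arrays compared and with the replicate block. With an intensity trend the only member that passed at 24 h was OsAGO1b, and with the floor it was DNG701. With 1 probe set per gene tested 4 passed at 24 h, OsDCL4, DNG701, OsAGO1b and DRB4. At 6 h they numbered 1 after median centring, without the dimmest probe sets, with an intensity trend and with 1 probe set per gene tested. With the floor they numbered 7 at 6 h (4 higher, 3 lower), where 16882 of all 41770 probe sets passed. Averaged, they numbered 0 after quantile normalization and cyclic loess. They numbered 5 with 1 probe set per gene tested (4 higher, 1 lower) and 11 with the floor (8 higher, 3 lower). The shares of all probe sets are not given for these averaged counts, so the counts are not read as particular to the members. The lower member with 1 probe set per gene tested was MEL1, which also passed as lower with an intensity trend. The floor sets dim genes such as MEL1 to the array median itself, so that their spread within a time and their difference (-0.12 for MEL1 at 6 h) are those of the array medians. Between 24 h and 6 h 0 passed in every setting. Of the companion genes 1 passed at 6 h with the floor, and 1 at 24 h after median centring, without the dimmest probe sets, with array weights and with 1 probe set per gene tested. Over all 41770 probe sets the counts were 641 at 6 h and 925 at 24 h. They became 81 and 24 after quantile normalization, 119 and 52 after cyclic loess, and 81 and 0 with only the 4 arrays compared. They were 384 and 570 with the replicate block, 1146 and 1302 after median centring, and 16882 and 481 with the floor. Array weights gave 187 and 1502, and an intensity trend 1062 and 1284. With 1 probe set per gene tested 595 and 743 of the 14662 genes passed, against 322 and 452 of them with adjustment over all probe sets. The same numbers need not mark shared plants: replicate 1 minus replicate 2 correlated over probe sets at 0.05 between 0 h and 6 h, 0.03 between 0 h and 24 h and 0.16 between 6 h and 24 h. Signs turned as follows, for differences as deposited of up to 0.68. At 6 h quantile normalization gave 0.19 for OsAGO14, 0.22 for OsAGO17 and -0.01 for OsAGO4b, cyclic loess 0.25, 0.21 and -0.02 for the same genes, median centring 0.07 for OsAGO14 and 0.04 for OsAGO17, and the floor -0.12 for OsAGO7. At 24 h quantile normalization gave 0.07 for OsAGO14, 0.11 for OsAGO17, -0.27 for OsAGO1a, -0.06 for OsAGO4b, 0.16 for OsAGO7 and -0.11 for OsDRB3. Cyclic loess gave 0.12, 0.15, -0.32, -0.09, 0.10 and -0.11 for these, -0.02 for DRM3 and -0.04 for OsDRB2, and median centring 0.04 for OsAGO7. Without 1 array the values at 6 h ran from -0.64 to 0.49 for OsAGO17, -0.21 to 0.38 for DRB7, -0.36 to 0.09 for OsDRB2 and -0.16 to 0.54 for JMJ705. At 24 h they ran from -0.53 to 0.10 for OsAGO17, -0.13 to 0.47 for OsAGO1a, -0.41 to 0.35 for OsAGO7, -0.24 to 0.38 for DRB7 and -0.55 to 0.15 for JMJ705. The cause of these changes was not tested.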
